A study of Mus musculus with 20 samples.

Results

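TGF-β1 for 8 h was compared with no TGF-β1 (0 h) in cultured mouse common dendritic cell progenitors (CDP), on 4 of the 20 microarrays of the series, 2 per group. The arrays were chosen by their labels, and all genes named on them were members of the comparison. RNA of the TGF-β1 series, which also has cells at 4, 12 and 24 h, was hybridised to Affymetrix mouse arrays, and the other 10 arrays hold progenitors and mature dendritic cells. The 8 h group was CDP of C57BL/6 bone marrow, amplified in culture and given TGF-β1 for 8 h, and the 0 h group was the same kind of culture without TGF-β1. The dose of TGF-β1, the numbers of mice and cultures, and any sort of the cells were not stated in the labels read here. Since the labels name no culture kept for 8 h without TGF-β1, TGF-β1 cannot be told apart from the hours in culture. The labels also do not say that replicates came from separate cultures, so p-values measure only the spread between these arrays, which may be technical.

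CDP are bone marrow cells that give rise to conventional dendritic cells (cDC) and plasmacytoid dendritic cells (pDC) and to few other cells. TGF-β1 binds a pair of serine/threonine kinase receptors, which phosphorylate SMAD proteins that enter the nucleus and regulate genes with other factors, and some of the induced genes feed back to dampen the signal. In the dendritic lineage TGF-β1 is best known for its need in Langerhans cells of the epidermis, and the title of the series concerns its effect on CDP and on the choice between cDC and pDC.

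The genes with the largest increases are shown with their promoters, because these are the genes on which the response was largest. RefSeq (GRCm38.p6) held promoters, from 250 bases before to 50 after a start, for 10 of the 12 genes with the largest increase, 13 promoters in all. They were searched on both strands for CAGACA, a SMAD-binding motif, and TGAGTCA, an AP-1 motif, and the 4 promoters with a match follow, with the match in capitals. Kcne3 (chr7:100178433-100178732, plus strand, the second of its 2 starts) and Capn3 (chr2:120463343-120463642, plus strand, the first of its 2 starts) held CAGACA, which in Kcne3 lies on the other strand and so reads TGTCTG. The other start of each of these genes had no match. F2r (chr13:95618417-95618716, minus strand) and F11r (chr1:171437311-171437610, plus strand) held TGAGTCA. Each is written 5′ to 3′ in the direction of the gene.
Kcne3: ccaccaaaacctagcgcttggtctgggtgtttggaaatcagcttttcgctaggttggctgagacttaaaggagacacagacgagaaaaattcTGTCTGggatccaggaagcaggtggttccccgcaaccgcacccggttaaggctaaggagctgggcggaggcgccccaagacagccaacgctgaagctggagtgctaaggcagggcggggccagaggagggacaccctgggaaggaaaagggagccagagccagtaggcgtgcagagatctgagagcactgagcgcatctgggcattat
Capn3: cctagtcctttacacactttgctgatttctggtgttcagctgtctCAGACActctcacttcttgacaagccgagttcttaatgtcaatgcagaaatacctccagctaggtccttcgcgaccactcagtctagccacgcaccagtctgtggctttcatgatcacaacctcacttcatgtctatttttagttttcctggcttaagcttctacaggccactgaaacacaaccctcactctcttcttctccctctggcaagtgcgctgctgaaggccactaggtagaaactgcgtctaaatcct
F2r: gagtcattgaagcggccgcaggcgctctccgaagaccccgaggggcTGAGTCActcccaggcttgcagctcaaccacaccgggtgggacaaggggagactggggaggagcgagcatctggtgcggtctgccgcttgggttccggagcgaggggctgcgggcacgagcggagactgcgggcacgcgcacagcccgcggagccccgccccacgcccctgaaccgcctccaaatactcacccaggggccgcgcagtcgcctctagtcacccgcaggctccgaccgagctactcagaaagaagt
F11r: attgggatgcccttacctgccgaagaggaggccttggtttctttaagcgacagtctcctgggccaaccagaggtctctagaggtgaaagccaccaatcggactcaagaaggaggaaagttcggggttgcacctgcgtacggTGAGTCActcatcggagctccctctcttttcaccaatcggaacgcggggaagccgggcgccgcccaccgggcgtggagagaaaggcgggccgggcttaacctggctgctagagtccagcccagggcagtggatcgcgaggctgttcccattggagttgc
The match began 158 bases before the start in Kcne3, 205 in Capn3, 204 in F2r and 109 in F11r. CAGACA stood in 20.7% of 266 promoters of genes higher at 8 h by at least 1 log2 unit, against 16.7% of 12558 promoters of the genes tested and 21.0% of all 32851 promoters in the table. TGAGTCA stood in 9.02% of promoters of those higher genes, against 3.88% of promoters of the genes tested and 5.20% of all promoters. Among 121 promoters of genes lower by at least 1 log2 unit the shares were 20.7% and 5.79%. These matches describe the letters in the windows and were not tested as binding sites.

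Levels below are the authors' log2 probe set intensities, with 1 probe set per gene, and a difference of 1 is a 2-fold change. The 8 h arrays had medians of 5.29 and 5.33, against 5.31 and 5.32 on the 0 h arrays, and 54.4% to 55.3% of probe sets lay above 5 on these 4 arrays. The control probe sets for the 3′ and 5′ ends of Gapdh differed by 0.01 and 0.10 at 8 h and by 0.04 and 0.03 at 0 h, those of Actb by 0.28 to 0.35 on these 4 arrays and those of Tfrc by 1.81 to 2.53. Replicate 1 at 4, 12 and 24 h, termed low in 5′ signal here, had 2.09 to 2.78 for Gapdh. The replicate SD over genes was 0.20 at 8 h and 0.13 at 0 h.

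Several of the markers chosen here for CDP were high in both groups. Kit and Itgax, of the same chosen set, stood lower, at levels given below, and Itgax is also counted below as a cDC marker. The receptor gene Flt3 stood at 12.04 and 12.07 at 8 h and 11.18 and 11.10 at 0 h, and Csf1r at 12.86 and 12.84 at 8 h and 12.55 and 12.34 at 0 h. Cd34, a progenitor antigen, stood at 11.26 and 10.79 at 8 h and 11.66 and 11.05 at 0 h. Some markers of other cells were detected too. Under 5 on all 4 arrays were 4 of 4 measured eosinophil markers, 5 of 8 for mast cells and basophils, 4 of 8 for T and NK cells, 3 of 7 for erythroid cells, 2 of 7 for B cells, 2 of 10 for monocytes and macrophages, 0 of 6 for megakaryocytes and 0 of 14 for granulocytes. Prtn3, a granule protease of granulocyte precursors, stood at 12.79 and 13.05 at 8 h and 13.18 and 13.35 at 0 h. In such bulk samples fewer cells of a type and less RNA per cell cannot be told apart.

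At 8 h, 1202 of 12189 genes tested differed from 0 h (9.86%; limma, adjusted p below 0.05, here termed called). Of these, 686 were higher (5.63%) and 516 lower (4.23%), and the median difference over all genes was 0.01. Counts of called genes in the lists below are to be read against these shares. By at least 1 log2 unit, 263 genes rose (2.16%) and 120 fell (0.984%). Increases of this size outnumbered decreases, which the plot of difference against level shows. The count depended on single arrays: 532 genes were called without 0 h replicate 1, 490 without 0 h replicate 2, 1867 without 8 h replicate 1 and 879 without 8 h replicate 2. A fit that took its spread from all 10 arrays of the TGF-β1 series called 196 genes, 193 of them among the 1202.

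**Figure D1:**
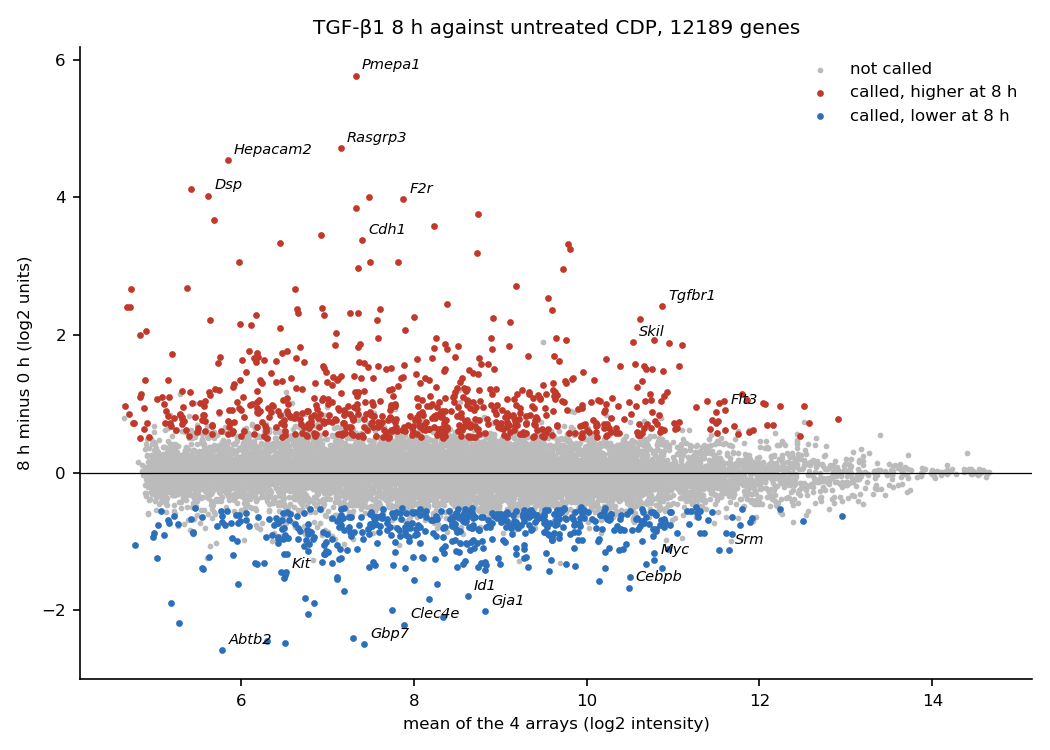
Difference between 8 h and 0 h (y axis, log2 units) against the mean of the 4 arrays (x axis, log2 intensity), 1 point for each of 12189 genes, with called genes in red (higher at 8 h) and blue (lower at 8 h). Increases reach 5.77 and decreases reach -2.58.

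Among the largest increases, Pmepa1, a membrane protein induced by TGF-β that sequesters SMADs, stood first. Pmepa1 had 10.03 and 10.40 on the 8 h arrays and 4.31 and 4.57 on the 0 h arrays, a rise of at least 37.0-fold (difference 5.77, SE 0.17, limma adjusted p = 5.91e-05). As 5 is near the dim end, a fold against a group with both arrays under 5 was taken against 5 and is a lower bound. Rasgrp3, an exchange factor that activates Ras, had 9.36 and 9.65 at 8 h and 4.83 and 4.76 at 0 h, at least 22.8-fold higher (limma adjusted p = 5.91e-05). Hepacam2, an adhesion molecule of the immunoglobulin superfamily, had 8.22 and 8.01 at 8 h and 3.77 and 3.39 at 0 h, at least 8.66-fold higher (limma adjusted p = 9.04e-05). All 3 genes were under 5 at 0 h and above 8 at 8 h. Other probe sets gave smaller differences, of 1.80 to 4.40 for Pmepa1 and 2.34 for Rasgrp3.

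Several of the next genes encode proteins of cell junctions and the cortex. Dsp, the desmosome protein desmoplakin, had 7.51 and 7.77 at 8 h and 3.63 and 3.60 at 0 h, at least 6.22-fold higher. Cttn, the actin-binding protein cortactin, had 7.46 and 7.60 at 8 h and 3.68 and 4.04 at 0 h, at least 5.78-fold higher, while its other probe sets gave 0.45 to 1.97. F11r, a tight junction adhesion molecule, had 10.75 and 10.49 at 8 h and 7.36 and 6.36 at 0 h, 13.6-fold higher, but its other tested probe set differed by 0.02. The remaining 6 genes of the 12 were Kcne3, a potassium channel subunit (at least 5.59-fold higher), Capn3 (4.01), a calpain protease, F2r (3.98), the thrombin receptor, Rilpl1 (3.85), Cpd (3.58), a carboxypeptidase, and Chad (3.45), a matrix protein, the last 5 given with their differences. F2r was the tightest of them, with 9.84 and 9.90 at 8 h and 6.00 and 5.78 at 0 h, 15.8-fold higher (limma adjusted p = 6.67e-05), and its other probe set gave 3.99. Other probe sets of Rilpl1 ranged between 0.32 and 4.45. The 12 genes were ranked by the deposited values, those under 5 included, and only among genes whose groups did not overlap.

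The largest decreases reached -2.58, in Abtb2, which had 4.80 and 4.19 at 8 h and 7.27 and 6.88 at 0 h and was at least 4.22-fold lower. Gbp7, an interferon-inducible GTPase, had 6.67 and 5.69 at 8 h and 8.82 and 8.50 at 0 h, 5.60-fold lower (limma adjusted p = 0.00559). Gpr65, a proton-sensing receptor, had 5.39 and 5.16 at 8 h and 7.91 and 7.59 at 0 h, 5.57-fold lower. Bank1, a signalling scaffold known from B cells, had 5.12 and 5.03 at 8 h and 7.67 and 7.37 at 0 h, 5.46-fold lower. Bank1 and Gpr65 at 8 h lay just above the level of 5. Clec4e, the mycobacterial glycolipid receptor Mincle, had 6.96 and 6.61 at 8 h and 8.94 and 9.05 at 0 h, 4.62-fold lower (limma adjusted p = 0.000731). Lpl, lipoprotein lipase, had 7.01 and 7.56 at 8 h and 9.20 and 9.58 at 0 h, 4.29-fold lower. The remaining 6 genes were Gda (-2.40), a guanine deaminase, Clec4a3 (at least 2.60-fold lower), a C-type lectin, Ccl3 (-2.05), a chemokine, Gja1 (-2.01), a gap junction protein, Rnd3 (-1.99), and Ednrb, the endothelin B receptor (4.43 and 4.05 at 8 h, 5.97 and 6.31 at 0 h), whose other probe set gave -0.49. Of the 12, Gda, Gpr65, Clec4e, Lpl, Rnd3 and Ednrb stayed called when the spread came from all 10 arrays.

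**Figure D2:**
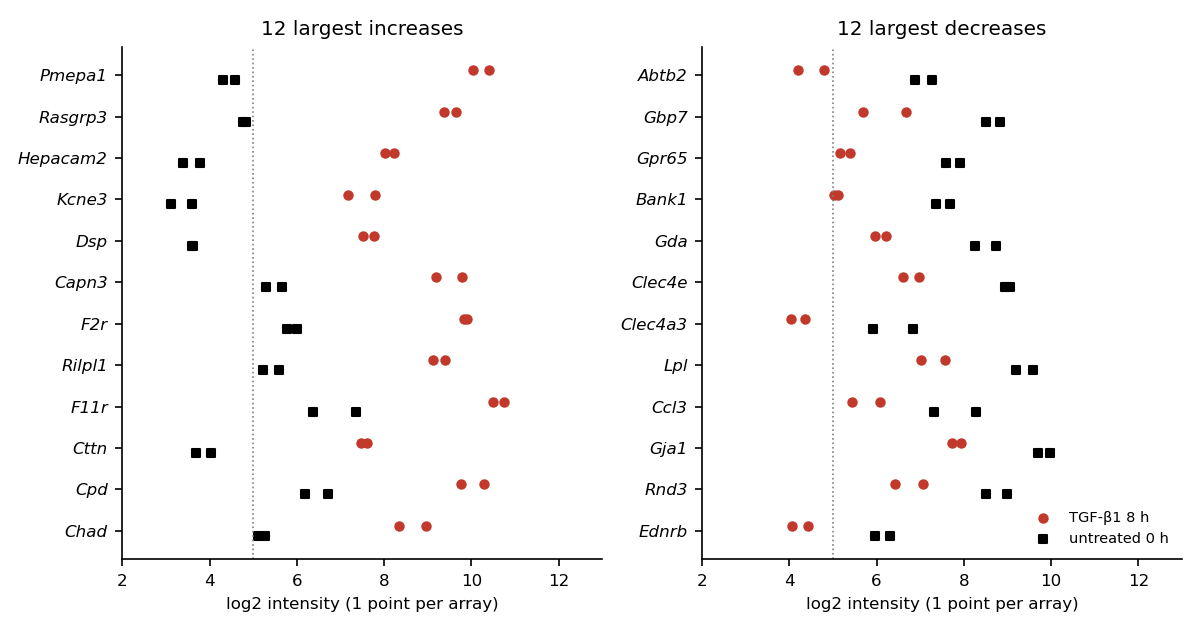
Log2 intensity (x axis) on each of the 2 arrays at 8 h (red circles) and at 0 h (black squares) for the 12 largest increases (left) and the 12 largest decreases (right), with a dotted line at 5. Genes were chosen among those whose groups do not overlap, and 6 of the increases have both 0 h arrays under 5.

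Both TGF-β receptors rose. Tgfbr1, the type I receptor that phosphorylates SMADs, had 12.12 and 12.04 at 8 h and 9.78 and 9.54 at 0 h, 5.34-fold higher (SE 0.14, limma adjusted p = 0.000395). Tgfbr2, the ligand-binding type II receptor, had 10.99 and 11.11 at 8 h and 9.35 and 9.44 at 0 h, 3.15-fold higher (limma adjusted p = 0.000949), while its other tested probe set gave 0.47 and was not called. In contrast Smad3, which carries the signal to the nucleus, had 7.79 and 7.76 at 8 h and 8.84 and 8.91 at 0 h, 2.15-fold lower (limma adjusted p = 0.00373). The groups did not overlap in any of these genes, which calls made on the same arrays make likely. Over 21 tested ligands, receptors and SMADs, 5 rose and 1 fell, with a median difference of 0.26 and 3 to 7 higher without each array in turn. The other risers were Smad7, Acvrl1, a type I receptor of the family (0.91), and Bmpr2, a type II receptor for bone morphogenetic proteins (0.54). Without 0 h replicate 2 the call of Acvrl1 was lost (adjusted p = 0.0820), and that of Bmpr2 was lost without either 0 h array or 8 h replicate 1 (up to 0.264). The ligand gene Tgfb1 had 9.11 and 9.81 at 8 h and 8.98 and 9.01 at 0 h and was not called.

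Genes that dampen TGF-β signalling rose together with Pmepa1. Spsb1, an adaptor of a ubiquitin ligase that acts on Tgfbr2, had 10.07 and 10.57 at 8 h and 7.01 and 7.25 at 0 h, 9.12-fold higher (limma adjusted p = 0.000492). Skil, a SMAD co-repressor, had 11.57 and 11.40 at 8 h and 9.74 and 9.44 at 0 h, 3.72-fold higher (limma adjusted p = 0.00115). Smad7, the inhibitory SMAD, had 7.77 and 7.67 at 8 h and 6.74 and 5.77 at 0 h, 2.76-fold higher (limma adjusted p = 0.0266). Smad7 at 0 h had the widest spread of these genes. Of 24 tested feedback and target genes 9 rose and 3 fell (median 0.52), the further risers being Bhlhe40, Ldlrad4, Ski, Itgae and Smurf1. The fallers were Id1, Id3 and Zeb2. Id1, an inhibitor of helix-loop-helix factors and a target of bone morphogenetic proteins, had 7.97 and 7.49 at 8 h and 9.37 and 9.66 at 0 h, 3.46-fold lower (limma adjusted p = 0.00369). Id3, a relative of Id1, had 9.27 and 8.63 at 8 h and 10.23 and 10.22 at 0 h, 2.42-fold lower (limma adjusted p = 0.0154). Id2, the member of this family needed for dendritic cells, had 12.49 and 11.90 at 8 h and 11.87 and 11.27 at 0 h, groups whose nearest arrays almost touch (difference 0.63, limma adjusted p = 0.189). A fit of the 4 arrays with the replicate number as a block called Id2, but no label pairs these numbers. The call of Smurf1 was lost without either 0 h array or 8 h replicate 2 (up to 0.187).

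Dendritic cell transcription factors changed in both directions, with 5 of 27 higher and 4 lower (median 0.19), counts that ran over 3 to 6 and 3 to 5 without each array in turn. Over all genes 5.63% were higher and 4.23% lower. Mycl, a MYC family member expressed in dendritic cells, had 8.17 and 8.18 at 8 h and 6.63 and 6.48 at 0 h, 3.06-fold higher (limma adjusted p = 0.00106), but its other probe set gave 0.09. Runx3, a factor required for several TGF-β responses of leukocytes, had 11.48 and 11.56 at 8 h and 10.39 and 10.31 at 0 h, 2.24-fold higher (limma adjusted p = 0.00331). Irf8, needed for CDP and for one cDC subset, had 12.36 and 12.73 at 8 h and 11.39 and 11.68 at 0 h, 2.02-fold higher (limma adjusted p = 0.0168, and 0.0690 without 0 h replicate 1). The other risers were Zbtb46, a cDC-specific factor (at least 1.66-fold, with 0.25 for its other probe set), and Relb, an NF-κB subunit (0.54). Zbtb46 lost its call without 0 h replicate 2 (adjusted p = 0.0828), and Relb lost it without either 0 h array or 8 h replicate 2 (up to 0.286).

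The 4 factors that fell include a pair known from the myeloid branch. Cebpb, a driver of granulocyte and macrophage programmes, had 9.88 and 9.43 at 8 h and 11.38 and 11.27 at 0 h, 3.18-fold lower (limma adjusted p = 0.00323). Gfi1, a repressor needed for neutrophils, had 6.53 and 6.23 at 8 h and 7.55 and 7.57 at 0 h, 2.27-fold lower (limma adjusted p = 0.00549). Zeb2 differed by -1.32 and Nfil3 by -0.74, and the call of Nfil3 was lost without either 0 h array (up to 0.118). Several other subset factors were not called. Irf4, of the other cDC subset, differed by 0.74 (adjusted p = 0.0550) and Batf3 by 0.45 (adjusted p = 0.0768). For the pDC factors the differences were -0.06 for Tcf4 (adjusted p = 0.866), -0.50 for Spib (adjusted p = 0.174) and 0.37 for Bcl11a (adjusted p = 0.132), all from limma. With the replicate number as a block on the 4 arrays, Irf4, Batf3, Spib and Bcl11a were called and Tcf4 was not.

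Of 14 stem and progenitor genes 4 fell and 1 rose (median -0.34), where 4.23% of all genes fell and 5.63% rose. Kit, the stem cell factor receptor, had 6.07 and 5.48 at 8 h and 7.43 and 7.08 at 0 h, 2.79-fold lower (limma adjusted p = 0.0108). Erg, a transcription factor of stem cells, fell by 0.73, Myb by 0.71 and Lmo2 by 0.53, but these 3 calls were lost without either 0 h array. Gfi1b, known from erythroid and platelet precursors, had 7.42 and 7.71 at 8 h and 6.43 and 6.65 at 0 h, 2.03-fold higher. Cytokine receptors counted 4 higher and 2 lower of 24 (median 0.19), where the shares over all genes were 5.63% and 4.23%. Flt3, the receptor that sustains CDP, rose 1.88-fold (limma adjusted p = 0.00721), with the levels given above. Il10ra had 9.49 and 9.68 at 8 h and 7.88 and 7.98 at 0 h, 3.16-fold higher, and its other probe set gave 0.37. Il7r rose by 1.37 and Il21r by 0.53, while Il6st, the shared signalling chain of interleukin 6 cytokines, fell 2.13-fold. Without any 1 of the 4 arrays Il21r was no longer called (up to 0.300). Csf1r (0.41, limma adjusted p = 0.109) and Csf2ra (0.14, limma adjusted p = 0.584) were not called, though the fit of the 4 arrays with the replicate block called Csf1r.

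Of 14 cDC markers 5 rose and none fell (median 0.22), while of 16 pDC markers 1 rose and none fell (median -0.03). Differences were positive for 9 and negative for 5 cDC markers, and for 7 and 9 pDC markers. The replicate block on the 4 arrays called 6 cDC markers higher and 2 lower, and 4 and 4 pDC markers. The summed linear level of all 18 measured cDC markers, with Cd24a highest, was 11600 and 11188 at 8 h against 12469 and 12590 at 0 h. Itgae, the integrin CD103 chain carried by a cDC subset, had 7.04 and 6.61 at 8 h and 5.08 and 5.32 at 0 h, 3.10-fold higher (limma adjusted p = 0.00373). Itgax, the integrin CD11c chain, had 9.12 and 9.27 at 8 h and 8.04 and 7.70 at 0 h, 2.50-fold higher (limma adjusted p = 0.00489). Fscn1, an actin bundler of mature dendritic cells, had 7.05 and 7.24 at 8 h and 5.64 and 5.97 at 0 h, 2.52-fold higher, but its other probe sets gave 0.09 and 0.16. Zbtb46 and Btla completed the 5, and Btla (0.68) lost its call without either 0 h array or 8 h replicate 2 (up to 0.237). The pDC marker that rose was Siglech, a lectin receptor of pDC, with 7.53 and 7.92 at 8 h and 6.25 and 6.11 at 0 h, 2.92-fold higher (limma adjusted p = 0.00337). The share of all genes called higher was 5.63%. Without each array in turn 3 to 4 cDC markers and 1 to 3 pDC markers rose, and no difference between these lists was tested.

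Of 16 MHC class II genes 5 rose and none fell, and 15 had a positive difference (median 0.63, against 0.01 over all genes). Ctss, the protease that trims the invariant chain, had 13.36 and 13.23 at 8 h and 12.67 and 12.37 at 0 h, 1.71-fold higher (limma adjusted p = 0.0241, and 0.169 without 0 h replicate 2). Ciita, the class II transactivator, had 6.34 and 6.22 at 8 h and 5.64 and 5.47 at 0 h, 1.66-fold higher (limma adjusted p = 0.0199). Cd74, the invariant chain itself, rose by 0.88, H2-Ab1 by 1.03 and H2-DMa by 0.72. Each of the 5 calls was lost without at least 1 array, so that the count ran between 0 and 7, with adjusted p up to 0.152 for Ciita, 0.136 for Cd74, 0.120 for H2-Ab1 and 0.165 for H2-DMa. Costimulation and maturation genes counted 5 higher and none lower of 11 (median 0.33), namely Fscn1, Icosl, Cd40, Cd83 and Relb. Icosl, a ligand for a T cell costimulator, had 7.63 and 7.83 at 8 h and 6.74 and 6.42 at 0 h, 2.22-fold higher (limma adjusted p = 0.00765). Cd83 stood at 5.19 and 5.21 at 8 h and 4.61 and 4.53 at 0 h, at the dim end of the arrays. The calls of Cd40 and Cd83 were lost without either 0 h array (up to 0.178 and 0.191), and 2 to 4 of the list rose without each array in turn. With the spread of all 10 arrays none of the MHC class II genes and 1 of the costimulation genes, Icosl, was called higher.

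**Figure D3:**
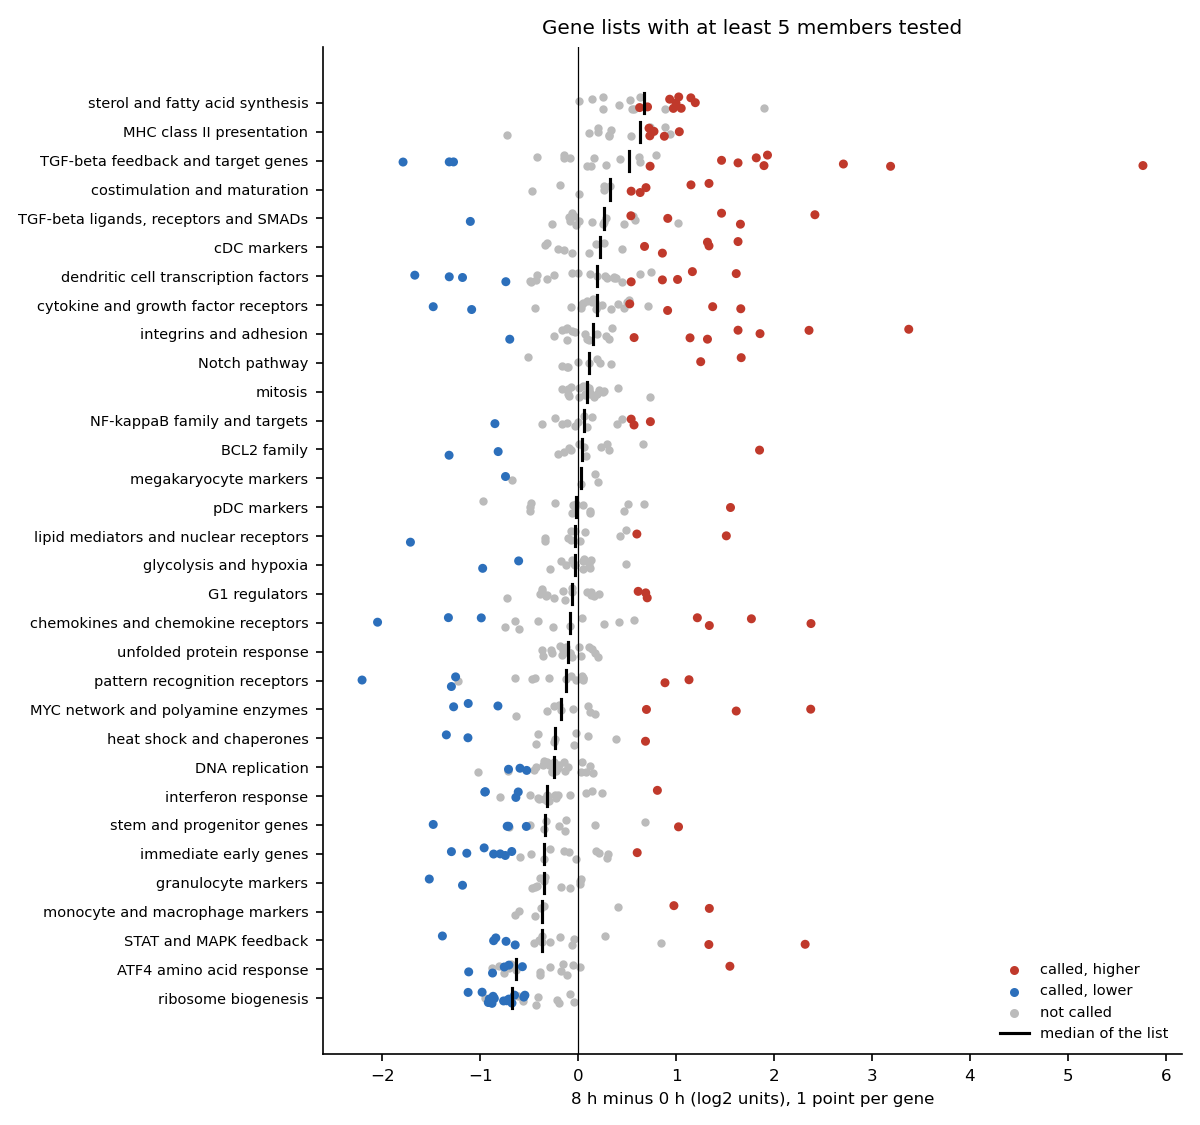
Difference between 8 h and 0 h (x axis, log2 units) for each tested gene of the lists reported here with at least 5 tested members (y axis), with red and blue points for called genes, grey points for the others and a black bar at each list's median. Sterol and fatty acid synthesis (median 0.67) lies at the top and ribosome biogenesis (median -0.68) at the bottom, and every point of these lists lies on its own side of 0.

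Receptors and ligands for migration changed in both directions, with 4 of 17 chemokine genes higher and 3 lower (median -0.09), where 5.63% of all genes were higher and 4.23% lower. Cxcr3, a receptor of activated lymphocytes and pDC, had 7.78 and 7.90 at 8 h and 5.39 and 5.53 at 0 h, 5.19-fold higher (limma adjusted p = 0.000358). Cxcl16, a membrane-bound chemokine, had 8.29 and 8.44 at 8 h and 7.08 and 7.21 at 0 h, 2.32-fold higher. Ccr6 (1.77) and Cx3cr1 (1.34), receptors of dendritic cells and monocytes, rose as well. The inflammatory chemokine genes Ccl3, Ccl6 (-1.33) and Ccl9 (-0.99) fell, and Ccl6 had 7.89 and 7.92 at 8 h and 9.35 and 9.12 at 0 h. Ccr7, which guides mature dendritic cells to lymph nodes, differed by 0.27 and was not called.

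Adhesion genes contained some of the largest increases, with 7 of 22 higher and 1 lower (median 0.15). Cdh1, the epithelial adhesion protein E-cadherin that Langerhans cells also carry, had 9.08 and 9.10 at 8 h and 6.05 and 5.38 at 0 h, 10.4-fold higher (SE 0.22, limma adjusted p = 0.000588). Itgb5, an integrin chain, had 10.75 and 10.80 at 8 h and 8.36 and 8.47 at 0 h, 5.12-fold higher, and its 3 other called probe sets gave 2.08 to 2.30. Cd9, a tetraspanin, rose by 1.86, Selplg, the selectin ligand, by 1.14, and Itga6 by 0.57. Emb, an immunoglobulin superfamily adhesion protein, was the 1 gene that fell, with 12.33 and 11.99 at 8 h and 12.92 and 12.80 at 0 h. The calls of Emb and Itga6 were each lost without either 0 h array and without an 8 h array (up to 0.193 and 0.285).

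Of 19 immediate early genes 7 fell and 1 rose (median -0.35), against 4.23% and 5.63% over all genes. Klf2, a factor that restrains activation, had 6.33 and 6.26 at 8 h and 7.57 and 7.61 at 0 h, 2.45-fold lower (limma adjusted p = 0.00214). Jun, a subunit of AP-1, had 9.77 and 9.57 at 8 h and 10.60 and 10.66 at 0 h, 1.95-fold lower (limma adjusted p = 0.00780), and Fos, its partner, fell by 0.80. Without each array in turn the number that fell was 2 to 8, and the calls lost in some of these fits were Fos (up to 0.141), Egr1 (0.0576), Ier2 (0.203), Ier3 (0.114) and Dusp1 (0.0929). Ier5 had 9.77 and 9.88 at 8 h and 9.25 and 9.19 at 0 h, and was called without 8 h replicate 1 but not without the others (up to 0.214). STAT and MAPK feedback genes counted 5 lower and 2 higher of 17 (median -0.37), with 1 to 6 lower when each array was left out. The other 4 that fell were the phosphatase genes Dusp5, Dusp1 and Dusp2 and the cytokine inhibitor Socs1, with differences of -0.86 to -0.64 and calls lost without at least 1 array (up to 0.111, 0.0929, 0.153 and 0.278). Pim1, a kinase induced by STAT factors, had 10.38 and 9.99 at 8 h and 11.46 and 11.68 at 0 h, 2.62-fold lower. In the same list, Rgs1 and Rgs2, regulators of G protein signalling, rose by 2.32 and 1.33.

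Of 17 pattern recognition genes 3 fell, the C-type lectin receptors Clec4e, Clec7a and Clec4d, and 2 rose, Tlr2 and Ly86 (median -0.13). For this and the next lists, 4.23% of all genes fell and 5.63% rose. Clec7a, the beta-glucan receptor Dectin, had 7.47 and 7.77 at 8 h and 8.88 and 8.87 at 0 h, 2.38-fold lower, and Clec4d fell by 1.30 beside Clec4e. Tlr2 had 10.36 and 10.09 at 8 h and 9.16 and 9.03 at 0 h, 2.19-fold higher (limma adjusted p = 0.00643). Ly86, which pairs with a homologue of a Toll-like receptor, had 11.65 and 12.24 at 8 h and 10.94 and 11.18 at 0 h, and its call was lost without either 0 h array or 8 h replicate 2 (up to 0.165). NF-κB genes showed 3 higher and 1 lower of 15 (median 0.06), with Nfkbie (0.74), Relb and Rel (0.57) higher and Tnf (-0.85) lower, and 0 to 3 higher without each array in turn. The calls of Nfkbie, Rel and Tnf were all lost without 0 h replicate 1 and without 0 h replicate 2 (up to 0.138, 0.285 and 0.0752). Interferon-response genes counted 4 lower and 1 higher of 21 (median -0.32), and 17 had a negative difference. Ifit2, induced by interferon, had 6.16 and 5.98 at 8 h and 7.01 and 7.02 at 0 h, 1.93-fold lower (limma adjusted p = 0.00754). Usp18, Xaf1 and Oas1a also fell, and Stat2 rose (0.81), but these 4 calls were lost without at least 1 array (up to 0.150, 0.240, 0.269 and 0.0891).

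Ribosome biogenesis genes were lower at 8 h as a list. All 23 tested genes had a negative difference and 14 fell, with a median of -0.68 and a 4.23% share of lower calls over all genes. Nop16, a nucleolar protein, had 9.09 and 9.13 at 8 h and 9.95 and 10.09 at 0 h, 1.88-fold lower (limma adjusted p = 0.00819). Nop2, a ribosomal RNA methyltransferase, averaged 9.08 ± 0.0023 at 8 h and 9.94 ± 0.088 at 0 h (SD, n = 2 each), 1.81-fold lower (limma adjusted p = 0.00966). Npm1, a nucleolar chaperone, had 14.05 and 13.94 at 8 h and 14.07 and 14.01 at 0 h and was not called. The number that fell was 2 to 16 without each array in turn, and 2 with the spread of all 10 arrays. Nop16 and Nop2 lost their calls without 0 h replicate 2 (adjusted p = 0.0576 and 0.0703).

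Genes of the MYC network went both ways. Myc, a driver of growth and of ribosome genes, had 10.52 and 9.78 at 8 h and 11.49 and 11.35 at 0 h, 2.42-fold lower (limma adjusted p = 0.0218). The polyamine enzyme gene Srm had 11.09 and 11.07 at 8 h and 12.12 and 12.29 at 0 h, 2.18-fold lower (limma adjusted p = 0.00443). Mxd4, a factor that opposes MYC, had 8.71 and 8.90 at 8 h and 6.44 and 6.41 at 0 h, 5.18-fold higher (limma adjusted p = 0.000358), although the lowest of its other probe sets gave -0.13. Over 15 genes of the MYC network and polyamine enzymes 3 rose and 3 fell (median -0.17), with Mxd1 (0.70) and Mycl higher and Cdca7 (-0.82) lower. The calls of Mxd1 and Cdca7 were lost without either 0 h array or 8 h replicate 2 (up to 0.182 and 0.158).

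None of 22 mitosis genes was called by limma (2 were called higher in a fit with the replicate number as a block, which called 10 DNA replication genes and 6 G1 regulators lower), and their median was 0.09. Of 27 DNA replication genes 3 fell and none rose (median -0.24), and the calls of Rfc3 (-0.59), Cdt1 (-0.53) and Mcm10 (-0.71) were all lost without either 0 h array (up to 0.297, 0.306 and 0.265). Of 19 G1 regulators 3 rose and none fell (median -0.06), where 5.63% of all genes rose and 4.23% fell. Cdkn1b, an inhibitor of cyclin-dependent kinases, had 10.44 and 10.49 at 8 h and 9.81 and 9.73 at 0 h, 1.61-fold higher (limma adjusted p = 0.0188). Cdkn1c, a related inhibitor, rose by 0.61 and Rbl2, a pocket protein, by 0.70, and these 3 calls too were lost without either 0 h array (up to 0.145, 0.234 and 0.257). Cdkn1a, the inhibitor best known as a p53 target, had 10.09 and 10.62 at 8 h and 10.03 and 10.41 at 0 h, groups that overlap, and Ccnd1 differed by -0.73 (limma adjusted p = 0.0506). The block on the 4 arrays called Ccnd1.

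Sterol and fatty acid synthesis genes were higher at 8 h as a list. All 20 genes had a positive difference, 9 rose and none fell (median 0.67, against 5.63% higher calls over all genes). Sc5d, a late enzyme of cholesterol synthesis, had 10.24 and 10.26 at 8 h and 9.09 and 9.35 at 0 h, 2.04-fold higher (limma adjusted p = 0.00737). Hmgcs1, an early enzyme of the pathway, had 12.92 and 12.52 at 8 h and 11.65 and 11.85 at 0 h, 1.96-fold higher (limma adjusted p = 0.0182, and 0.0739 without 0 h replicate 1). Cyp51, Fdft1, Insig1, Nsdhl, Lss, Idi1 and Mvd were the other called genes, with differences of 0.63 to 1.20. Scd1, a fatty acid desaturase, had the largest difference of the list (1.90), but its arrays overlapped, with 9.65 and 11.23 at 8 h and 7.36 and 9.73 at 0 h, and it was not called. The number that rose was 1 to 11 without each array in turn, and 1 with the spread of all 10 arrays. The first 0 h array was the lower of the pair for 19 of the 20 genes, as the plot of single arrays shows.

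**Figure D4:**
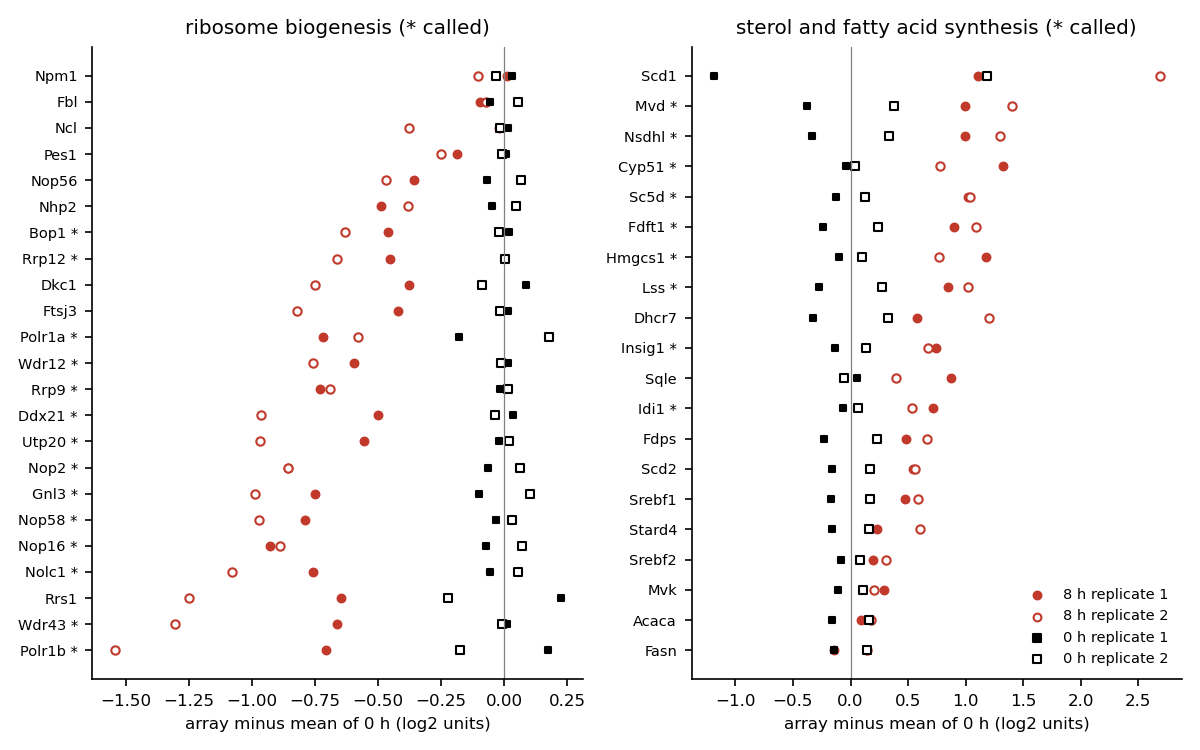
Each of the 4 arrays (red circles 8 h, black squares 0 h, filled replicate 1, open replicate 2) minus the mean of the 0 h arrays (x axis, log2 units) for the tested genes (y axis) of ribosome biogenesis (left) and of sterol and fatty acid synthesis (right), with called genes starred. Every called ribosome gene has both 8 h points left of the 0 h points, and every called sterol gene has them on the right. The calls were made on these same arrays, so this separation is no further result.

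Amino acid and stress genes were next considered. Genes of the ATF4 amino acid response counted 5 lower and 1 higher of 21, with a median of -0.64 and 19 negative differences (4.23% of all genes were lower and 5.63% higher), and 1 to 10 were lower when each array was left out. Slc7a1, a transporter of cationic amino acids, had 11.06 and 10.89 at 8 h and 11.94 and 12.24 at 0 h, 2.17-fold lower (limma adjusted p = 0.00765). Eif4ebp1, an inhibitor of translation initiation, had 10.60 and 10.59 at 8 h and 11.22 and 11.47 at 0 h, 1.69-fold lower (limma adjusted p = 0.0199, and 0.155 without 0 h replicate 2). Ddit4, an inhibitor of the growth kinase mTOR, went the other way, with 11.12 and 11.21 at 8 h and 9.66 and 9.57 at 0 h, 2.93-fold higher (limma adjusted p = 0.00115). Aldh18a1, Slc7a5 and Psat1 also fell, by 0.71, 0.88 and 0.57, and lost their calls without at least 1 array (up to 0.162, 0.155 and 0.357). Of 11 heat shock genes 2 fell and 1 rose (median -0.23). Hspa1b, an inducible chaperone, had 7.06 and 7.12 at 8 h and 8.59 and 8.27 at 0 h, 2.54-fold lower, and Hsph1, a co-chaperone of it, had 9.99 and 9.63 at 8 h and 10.97 and 10.90 at 0 h, 2.18-fold lower. Hspa4l (0.69) rose, a call lost without 0 h replicate 1, 0 h replicate 2 or 8 h replicate 1 (up to 0.230). None of 18 unfolded protein response genes was called by limma (2 were called lower with the block), and their median was -0.11.

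Other metabolic, survival and Notch genes gave single changes, where 5.63% of all genes were higher and 4.23% lower. Of 16 glycolysis and hypoxia genes 2 fell (median -0.04), Slc2a3, a glucose transporter (-0.98), and Pfkp, a phosphofructokinase (-0.61), with the calls lost without 0 h replicate 2 in the first (adjusted p = 0.0611) and without either 0 h array or 8 h replicate 2 in the second (up to 0.348). Among 13 lipid mediator and nuclear receptor genes 2 rose and 1 fell (median -0.03). Vdr, the vitamin D receptor, had 8.39 and 8.47 at 8 h and 6.76 and 7.08 at 0 h, 2.85-fold higher (limma adjusted p = 0.00258), and its other probe set rose by 1.44. Ptger2, a prostaglandin receptor, had 6.42 and 6.26 at 8 h and 7.82 and 8.29 at 0 h, 3.28-fold lower, while its relative Ptger4 rose by 0.60, a call lost without either 0 h array or 8 h replicate 2 (up to 0.322). In the BCL2 family 1 of 14 rose and 2 fell (median 0.03). Bmf, a death-promoting member, had 8.09 and 7.93 at 8 h and 6.43 and 5.88 at 0 h, 3.61-fold higher, but its other probe set gave -0.03. Pmaip1, the death-promoting Noxa, had 10.03 and 10.03 at 8 h and 11.41 and 11.29 at 0 h, 2.49-fold lower (limma adjusted p = 0.00217), and Bid fell by 0.82 (adjusted p = 0.101 without 0 h replicate 2). Of 11 Notch pathway genes 2 rose and none fell (median 0.10). Hes1, a Notch target, had 6.37 and 6.71 at 8 h and 5.20 and 5.37 at 0 h, 2.38-fold higher, and Dtx1, a Notch modulator, rose by 1.66, against -0.24 for its other probe set.

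Most granulocyte markers had a negative difference, though few were called. Of 13 tested, 2 fell, none rose and 10 were negative (median -0.35). The summed linear level of all 14 measured markers was 8958 and 10574 at 8 h against 12766 and 15027 at 0 h. Prtn3, the highest member at levels given above and not called, made up most of each sum. Ctsg, a granule protease, had 9.54 and 9.95 at 8 h and 10.86 and 11.67 at 0 h, 2.87-fold lower (limma adjusted p = 0.0195), and Gfi1 was the other. The part of this shift in the decreases of Cebpb, the C-type lectin genes and the chemokine genes was not tested. Monocyte and macrophage markers counted 2 higher and none lower of 8, with 5 negative (median -0.37). The 2 were Cx3cr1 and Apoe, a lipid carrier (0.98), whose call was lost without either 0 h array. The summed level of all 10 measured was 14926 and 13796 at 8 h against 15130 and 13219 at 0 h. Csf1r, used above as a CDP marker, was the highest member and weighs heavily in this sum. Its levels were higher at 8 h, though not called, unlike the median of the list. The single call among megakaryocyte markers was Pf4 (-0.74) and that among T and NK cell markers Nkg7 (-0.84), of 5 and 3 tested, both lost without 0 h replicate 2 and Pf4 also without 8 h replicate 2 (up to 0.287 and 0.0753). None of the 4 tested B cell, 4 erythroid or 3 mast cell and basophil markers was called by limma, and the block called 0, 0 and 2 of them.

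Few genes were called between 8 h and the preceding time. The 4 h arrays had the widest replicate SD over genes of the series (0.43), so few calls do not show that levels were alike. Against 4 h, 1 of 12655 genes was called at 8 h by limma in the fit of 10 arrays (0.0079%), and 1052 had an unadjusted p below 0.05. That gene was Dsp, with 7.51 and 7.77 at 8 h and 5.87 and 5.68 at 4 h (difference 1.86, adjusted p = 0.0332). Without the 3 arrays with low 5′ signal the genes (0.0241%) were Dsp, Hepacam2 and Dubr, and with the replicate number as a block they were Dsp, Capn3, Chad and Tgm2. No gene was called without 8 h replicate 1, 8 h replicate 2 or 4 h replicate 1, while 1360 were called without 4 h replicate 2, which leaves 4 h with the array of low 5′ signal. All these fits without arrays leave 1 array at 4 h or at 8 h, so that group has no spread of its own. Pmepa1, Tgfbr1 and F2r already stood at 10.33 and 10.08, at 12.30 and 11.87, and at 10.18 and 9.45 at 4 h, and were not called between 8 h and 4 h. Capn3 instead had 7.57 and 7.96 at 4 h, 9.19 and 9.78 at 8 h, and 11.50 and 12.00 at 24 h.

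Against 8 h, 600 genes were called at 24 h (4.74%), 387 higher (3.06%) and 213 lower (1.68%). The count was 129 without 24 h replicate 1, 122 without 24 h replicate 2, 13 without 8 h replicate 1 and 39 without 8 h replicate 2, and it was 1533 (12.3%) without the 3 arrays with low 5′ signal. Each of these fits without arrays leaves 1 array at 24 h or at 8 h, so that group has no spread of its own. The comparison with 8 h uses the same 8 h arrays as that with 0 h, so values are given side by side. Itgae was 4.55 higher at 24 h than at 8 h (limma adjusted p = 0.00587), with 11.60 and 11.16 at 24 h, and 1.63 higher at 8 h than at 0 h. Cdh1 was 3.23 higher at 24 h than at 8 h (limma adjusted p = 0.00587) and 3.38 higher at 8 h than at 0 h. Irf4, not called at 8 h in the fit without a block, had 8.87 and 9.18 at 24 h, 1.97 higher than at 8 h (limma adjusted p = 0.00900). Both Itgae and Irf4 thus had the larger step after 8 h, and Cxcr3 and Kit turned. Cxcr3 had 5.98 and 6.05 at 24 h, a difference of -1.82 from 8 h (limma adjusted p = 0.0366), after a difference of 2.38 at 8 h. Myc went on down, with 7.94 and 8.50 at 24 h, a difference of -1.92 from 8 h (limma adjusted p = 0.0244), and Cebpb fell by a further 1.80.

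**Figure D5:**
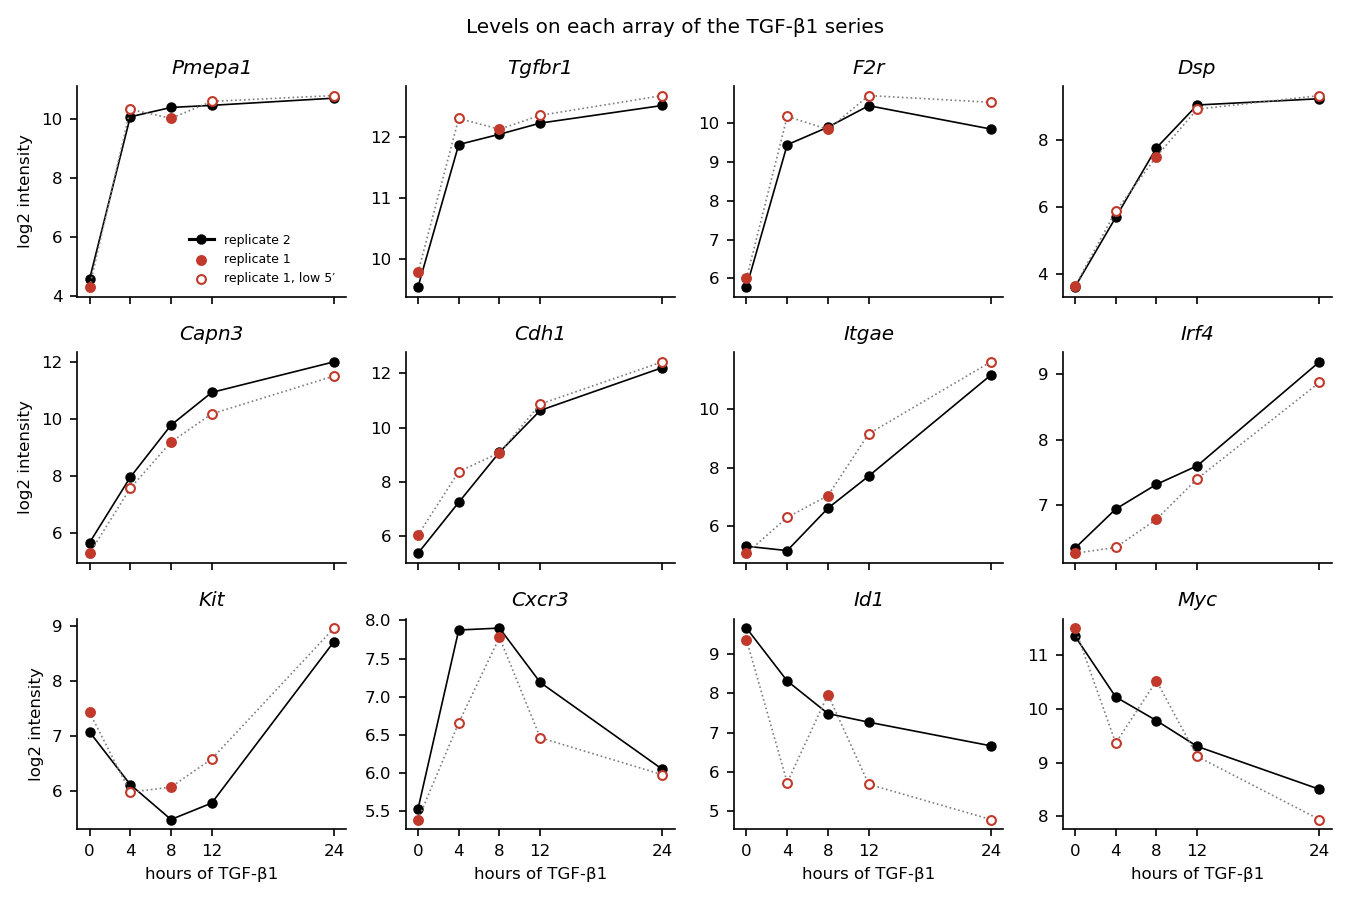
Log2 intensity (y axis) of 12 genes on each array of the TGF-β1 series against hours of TGF-β1 (x axis), with replicate 2 in black, replicate 1 in red and open red circles for the 3 arrays with low 5′ signal. Pmepa1, Tgfbr1 and F2r are near their 8 h level by 4 h, Capn3, Cdh1, Itgae and Irf4 climb to 24 h, and Kit has its lowest and Cxcr3 its highest mean at 8 h.

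Genes that changed by at least 1 log2 unit at 8 h were also read on the arrays of mature cells, which hold none of the 4 arrays used above and were labelled with another kit. Of the 263 higher genes 216 were tested there, and 101 were higher and 23 lower in cDC than in CDP, against 1582 higher and 2597 lower of 8707 genes tested on both sets of arrays (background over all genes tested there 18.7% higher and 29.3% lower). Their median difference was 0.79 against -0.17 for all. In pDC against CDP the same genes counted 116 higher and 30 lower (median 1.15, against -0.16 for all, background 21.7% higher and 31.6% lower). Of the 120 lower genes 112 were tested, with 18 higher and 61 lower in cDC and 13 higher and 75 lower in pDC (medians -1.65 and -2.23). The comparisons of cDC and pDC share the CDP arrays. Untreated CDP were the reference both when these genes were chosen and here, though on other arrays. Genes chosen for a low or a high level in CDP at 0 h may tilt this way through the choice. A gene low in CDP was also tested here only if other cells on these arrays lay above 5. The background was not matched for CDP level, and the part of the tilt due to the choice was not tested. Directly between the mature cells, 54 of the 216 higher genes were higher in cDC than in pDC and 63 were lower (median -0.19), and the lower genes counted 35 higher and 13 lower (median 0.42), with a background of 12.8% and 12.7%. Single genes lay on either side: Hepacam2 was 7.03 higher in cDC than in pDC and Rasgrp3 4.75 higher, whereas the differences were -3.26 for Pmepa1 and -3.57 for Cdh1, and F2r, higher in CDP at 8 h, differed by -4.41 between cDC and CDP.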

How the data were processed

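Biotin-labelled RNA (250 ng per sample, 3′ IVT kit) of the TGF-β1 series was hybridised to Affymetrix mouse arrays, per the labels. The values deposited by the authors are log2 intensities per probe set, and GCRMA, of unstated version, is the tool in the submitters' processing notes. They were used without further scaling. Of 45101 probe sets, 64 are controls, and platform annotation gave 34945 of the rest 1 gene, 932 several and 9160 none. For each of 18193 genes the probe set of highest mean over all 20 arrays stood for the gene, a choice for 9010 genes. Probe sets whose design is known to match related sequences (Rilpl1, Capn3, Itgb5, Gja1, Smad7, Eif4ebp1 and Hmgcs1) may cross-hybridise. The number of arrays limits the precision.

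Differences between 8 h and 0 h were computed in R 4.3.3 with limma 3.58.1, using lmFit and eBayes, on the 4 arrays, over genes above 5 on at least 2 of them, with two-sided Benjamini-Hochberg adjusted p below 0.05 over all genes tested. Differences of 8 h from 4 h, and of 24 h from 8 h, came from a fit of the 10 arrays of the series. The fit was also run on simulated arrays with planted changes and independent noise, unlike the correlated deviations of same-numbered arrays here. Fold changes are unlogged differences. Alternatives were other arrays in the fit, a replicate block, scaling, filters, probe sets and each array left out. Those that left out an array for 8 h against 4 h and 24 h against 8 h were chosen after seeing the data.

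The 38 gene lists (651 genes, 610 measured) and the genes named were chosen with earlier results of these data known. The genes named are the 12 largest increases and 12 largest decreases among called genes whose groups were apart on every array, for each list and direction at most 2 called members by smallest p, and a set of regulators, 116 in all, of which 106 were called. 1 gene list is not reported here. Other members of small counts were named after their values were seen. Promoters are from RefSeq.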

Additional observations from a re-analysis of the deposited data

Results flagged for a closer look

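The Kit level fell by 1.48 at 8 h relative to 0 h and was 3.07 higher at 24 h than at 8 h (limma adjusted p = 0.00561 for the second difference), with levels of 7.43 and 7.08 at 0 h, 6.07 and 5.48 at 8 h and 8.97 and 8.72 at 24 h. It was noted because its differences from 0 h at 8 h and at 24 h had opposite signs and the direct difference between the times was called. Usp18 was noted for the same reason, since it fell by 0.95 at 8 h relative to 0 h and was 1.63 higher at 24 h than at 8 h (limma adjusted p = 0.0187), with levels of 6.57 and 6.17 at 0 h, 5.67 and 5.17 at 8 h and 6.90 and 7.19 at 24 h. Without the 3 arrays with low 5′ signal, which leaves only replicate 2 at 24 h, the differences between 24 h and 8 h were 2.95 for Kit and 1.77 for Usp18. No cause was tested.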

How the results depend on the processing

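Median centring, quantile normalization, other filters, another choice of probe set and trended variances left the count of called genes at 1184 to 1300, against 1202. The fit of 10 arrays gave 196 called genes (152 higher, 44 lower, and 133 and 35 by at least 1 log2 unit). Without each array in turn the count was 490 to 1867, with 327 to 948 higher and 163 to 919 lower, and 224 to 304 and 97 to 224 by at least 1 log2 unit. Of the 106 called genes named, 42 stayed called in the fit of 10 arrays, and 30 lost their call without at least 1 array. Genes left with fewer than 2 arrays above 5, such as Pmepa1, Rasgrp3 and Dsp without an 8 h array, were not tested there. Their calls could thus be neither kept nor lost in those fits. Without each array in turn Tcf4, not called, ran from -0.20 to 0.083 and changed sign without 0 h replicate 2, and Cdkn1a, not called, ran from -0.13 to 0.40 and changed sign without 0 h replicate 1 (-0.057) and 8 h replicate 2. With the replicate number as a block, 3469 genes were called on 4 arrays (1815 higher, 1654 lower) and 567 on 10 arrays (354 higher, 213 lower). On 4 arrays the block also called Id2, Irf4, Batf3, Spib, Bcl11a, Csf1r and Ccnd1 (adjusted p = 0.000718 for Irf4 and 0.000774 for Id2, with limma), and on 10 arrays Irf4 alone of these (adjusted p = 0.0484). The labels give no reason to pair the numbers, and deviations of same-numbered arrays correlated at 0.54 between 0 h and 8 h, and at 0.27 to 0.85 over the series. For 8 h against 4 h, 3 genes were called without the arrays with low 5′ signal, 4 with the block, and 0 to 1360 without each array. For 24 h against 8 h the numbers were 1533, 1562 and 13 to 129. The cause of these shifts was not tested. Fits without arrays have fewer samples and leave 1 array in a compared group, though some of their counts rose. With 2 arrays per group, small differences are not resolved, and levels under 5 have no reliable order.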
